A study of Mus musculus with 8 samples.

Results

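The nuclear genes of respiratory complexes III, IV and V were compared between GAS muscle with MYTHO-KD and control muscle 3 weeks after viral transduction. A gene was included if its symbol in the deposited table began with Uqcr, with Cox followed by a digit, or with Atp5, which gave 52 genes in 53 rows of a table of 22206 probe sets that name 22664 different gene symbols. Each gene was represented by its row with the highest mean log2 signal. Only Atp5d had more than 1 row, and only the row of Cox16 also named another gene, Synj2bp, which that row cannot separate from Cox16. By position in the respiratory chain, 8 genes coded for subunits of complex III, 18 carried the symbols of structural proteins of complex IV (Cox4 to Cox8), 9 were assembly factors of complex IV (Cox10 to Cox20) and 17 carried the prefix of complex V. Atp5s and Atp5sl, listed in RefSeq as Dmac2l and Dmac2, share that prefix but are not core subunits of the enzyme, and Cox7a2l is a factor of respiratory supercomplexes.

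All samples came from male, wild-type C57/Bl6j mice, aged 14 weeks per the labels. In 4 muscles an adeno-associated virus of serotype 1, injected into the muscle, expressed a short hairpin RNA against D230025D16Rik, the transcript that codes for MYTHO, from a U6 promoter (AAV sh-RNA MYTHO). In the other 4 muscles the same kind of vector expressed a scrambled hairpin (AAV sh-RNA scrmb), injected into the opposite leg. By the animal numbers in the headers the arrays form 4 pairs of legs, called animals A to D here. The U6 promoter is not restricted to muscle fibers, both groups carry a virus and a hairpin, and each array was made from a piece of the muscle.

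Electrons enter complex III from ubiquinol, pass through cytochrome c to complex IV, and the proton gradient built on the way drives complex V, the ATP synthase. Each complex joins a few mitochondrially encoded subunits with many nuclear ones. Complex IV has subunits that exist in a heart and skeletal muscle isoform (Cox6a2, Cox7a1, Cox8b) and a ubiquitous isoform (Cox6a1, Cox7a2, Cox8a). Slow fibers are known to hold more mitochondria than fast glycolytic fibers.

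Promoters of both kinds of isoform are shown because the comparison of isoforms rests on these genes. Windows from 250 bases before to 50 bases after the start were given by RefSeq (build GRCm38.p6) for 41 of the 52 genes, and the 250 bases before the start are printed 5′ to 3′ on the strand of the gene. Capitals mark matches, on either strand, to the letters GCATGCGC (the core of the NRF1 motif), CCGGAAG (ETS factors), ANATGGCG (YY1), TNAAGGTCA (ERR), GGGCGG (GC box), CAGCTG (an E-box) or TATAAA (the TATA box).
Cox7a1: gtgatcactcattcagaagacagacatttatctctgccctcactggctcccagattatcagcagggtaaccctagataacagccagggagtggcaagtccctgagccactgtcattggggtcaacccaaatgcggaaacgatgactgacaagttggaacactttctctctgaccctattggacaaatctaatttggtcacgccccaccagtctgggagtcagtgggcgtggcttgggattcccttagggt
Cox7a2: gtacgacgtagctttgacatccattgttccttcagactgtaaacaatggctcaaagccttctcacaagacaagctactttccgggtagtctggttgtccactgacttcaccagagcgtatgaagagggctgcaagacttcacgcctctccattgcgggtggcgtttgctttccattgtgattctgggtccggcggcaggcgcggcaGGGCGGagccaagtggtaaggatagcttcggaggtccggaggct
Cox8b: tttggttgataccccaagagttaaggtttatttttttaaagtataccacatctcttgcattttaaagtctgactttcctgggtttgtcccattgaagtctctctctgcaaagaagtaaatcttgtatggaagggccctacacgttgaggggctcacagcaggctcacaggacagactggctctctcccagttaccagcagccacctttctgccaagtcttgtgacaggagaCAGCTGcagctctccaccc
Cox8a: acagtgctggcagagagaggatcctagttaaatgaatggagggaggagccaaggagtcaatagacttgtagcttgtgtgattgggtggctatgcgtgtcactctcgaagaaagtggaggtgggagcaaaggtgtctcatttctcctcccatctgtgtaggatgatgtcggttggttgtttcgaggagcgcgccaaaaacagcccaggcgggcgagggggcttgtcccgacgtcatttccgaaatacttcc
Cox6a1: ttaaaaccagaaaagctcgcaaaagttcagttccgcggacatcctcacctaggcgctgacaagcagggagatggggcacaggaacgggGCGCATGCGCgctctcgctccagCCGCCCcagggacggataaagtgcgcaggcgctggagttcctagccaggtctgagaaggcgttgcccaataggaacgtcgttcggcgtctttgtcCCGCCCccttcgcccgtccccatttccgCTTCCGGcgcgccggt
The window of Cox6a1, chr5:115348959-115349208 on the minus strand, held overlapping NRF1 matches that began 162 and 160 bases before the start, GC boxes at 139 and 44 bases and an ETS match at 16 bases. Cox7a2, chr9:79759854-79760103 on the minus strand, held 1 GC box, 44 bases before the start. Cox8b, chr7:140900447-140900696 on the minus strand, held an E-box 19 bases before the start. It also held E-box letters that end after the start and TATA letters wholly after it, which are not in capitals or not printed. Cox7a1, chr7:30183921-30184170 on the plus strand, held none of these letters. Cox8a, chr19:7217617-7217866 on the minus strand, held none wholly before the start and ETS letters that reach past it, which are not in capitals or not printed. The window of Cox6a2 was not analysed here.

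Over the whole 300-base windows, the ETS letters occurred in 15 of 41 genes (36.6%, against 9.93% of the 27025 genes with a window). The NRF1 core occurred in 6 genes (14.6% against 3.05%) and the YY1 letters in 7 genes (17.1% against 4.23%). GC boxes occurred in 41.5% of the genes against 38.2% of all genes, the E-box in 4.88% against 18.3%, TATA in 9.76% against 15.7%, and the ERR letters in 1 gene, Atp5g3 (2.44% against 1.43%). ETS letters were present in 5 of 7 complex IV assembly factors, 3 of 13 structural genes of complex IV, 2 of 5 genes of complex III and 5 of 16 genes of complex V. NRF1 letters lay in Uqcr11, Uqcrc1, Cox6a1, Atp5g2, Atp5k and Atp5l. The ETS and NRF1 sequences are motifs of factors known to act on nuclear mitochondrial genes, and a match is a description of these windows alone.

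The hairpin target checked the labels. In the order of animals A to D, D230025D16Rik had log2 signals of 11.35, 11.31, 10.78 and 11.05 in the scrmb muscles and of 8.16, 8.20, 8.80 and 8.08 in the MYTHO muscles. The groups did not overlap, and the transcript fell by 2.81 on the log2 scale (SE 0.21, limma adjusted p = 0.00044). The skeletal muscle markers Acta1, Ckm, Tnnt3, Actn3 and Mb had a mean log2 signal between 19.25 and 19.44 on all arrays, close to the ceiling of 19.93 that the table reaches. No gene of complexes III to V was at that ceiling, with the highest signal at 19.67 (Cox7c) and the lowest at 3.25 (Cox6b2). Array medians ran from 6.39 to 6.47.

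Most of the 52 genes had a higher mean signal after MYTHO-KD. The log2 fold change, MYTHO minus scrmb, was above 0 for 46 genes and below 0 for 6, while 49.0% of all probe sets were above 0. It was above 0 for 44 genes under quantile normalization and 47 under median centring. It was above 0 for 43 without the scrmb array of animal C and for 43 without the MYTHO array of animal B. Its median was 0.28 over the 52 genes and -0.005 over all probe sets. No gene passed an adjusted p of 0.05 in limma, either higher (background 0.00901% of probe sets) or lower (background 0.0180%), and the lowest adjusted p was 0.13. With eBayes trend and robust, Cox6a2 and Cox8a passed it, and the share of all probe sets called rose as well, to 0.135% higher and 0.585% lower. At an unadjusted p under 0.05, 11 genes were higher (21.2% of the 52, against a background of 4.81%) and 2 were lower (3.85%, against 7.58%). In the fit blocked on animal these counts were 9 and 1, since Cox4i1, Atp5a1 and, among lower genes, Uqcrb no longer had an unadjusted limma p under 0.05.

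**Figure D1:**
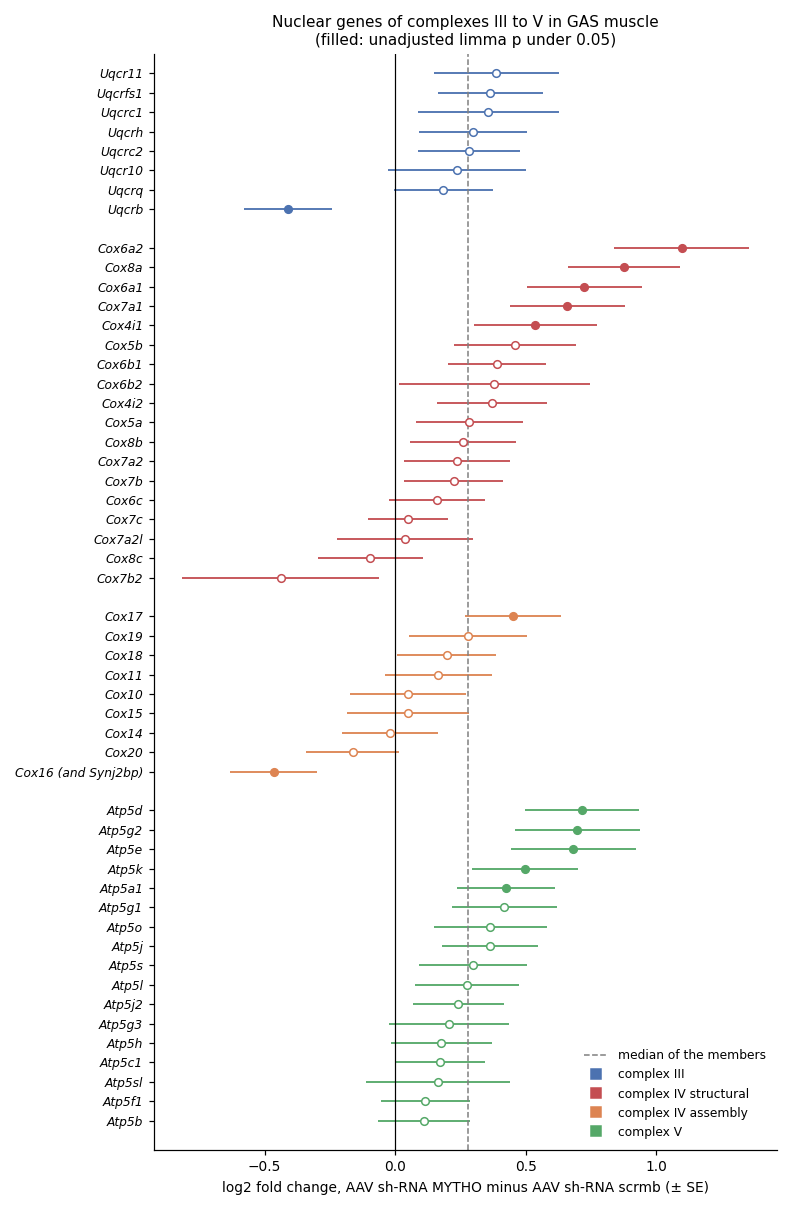
Log2 fold change (MYTHO minus scrmb, horizontal axis) of each of the 52 genes with its standard error, grouped by complex and ordered by size. Filled points have an unadjusted limma p under 0.05, the dashed line is the median of the genes at 0.28, and 46 points lie to the right of 0.

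Of the 11 genes that were higher at an unadjusted p, 5 were structural genes of complex IV (Cox6a2, Cox8a, Cox6a1, Cox7a1 and Cox4i1), 1 was the copper chaperone Cox17 and 5 belonged to complex V (Atp5d, Atp5g2, Atp5e, Atp5k and Atp5a1). Both genes that were lower at an unadjusted p, Uqcrb and the row of Cox16, had lower signals in 4 of 4 animals. They were 2 of the 52 genes with this pattern, which 2393 of all 22206 probe sets showed. The threshold of the study, at least 2-fold and an unadjusted p under 0.05, was met by 1 gene, Cox6a2 (background 0.261%), and by none in the lower direction (background 1.25%). The groups did not overlap for Cox6a2, Cox8a and Cox17, 3 of the 52 genes, with all MYTHO arrays higher (background 2.59%). They also did not overlap for Uqcrb and the row of Cox16, with all MYTHO arrays lower (3.85% of the 52, near the background of 3.87%). In 10 genes the MYTHO leg was higher in 4 of 4 animals (19.2%, against 8.94% of all probe sets).

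The unadjusted count of higher genes depended on single animals. It was 7 without the scrmb array of animal B, the scrmb array of animal C or the MYTHO array of animal B, and it was 3 without both arrays of animal B and 4 without both arrays of animal C. The count of lower genes was 1 without the scrmb array of animal A, B or C, the MYTHO array of animal A or both arrays of animal C, and 0 without both arrays of animal A. Cox6a2 no longer reached 2-fold without the scrmb array of animal C, the MYTHO array of animal B, or both arrays of either animal, so that no gene met the threshold of the study there. Without the scrmb array or both arrays of animal D, 2 genes met it. Cox6a2, Cox8a, Cox6a1, Cox7a1, Atp5d, Atp5g2, Atp5e and the row of Cox16 kept an unadjusted p under 0.05 in each of the 8 fits that left out 1 array. Of these, Cox6a2, Cox8a and Cox6a1 also kept it without both arrays of any animal. Cox7a1, Atp5d and Atp5g2 lost it without both arrays of animal B and without those of animal C, Atp5e lost it without those of animal B, and the row of Cox16 lost it without those of animal A and without those of animal C.

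Complex III, whose subunits pass electrons from ubiquinol to cytochrome c, had 7 of 8 genes above 0 and a median log2 fold change of 0.29. The median was 0.167 without the scrmb array of animal C, 0.173 without the MYTHO array of animal B, and 0.105, 0.187 and 0.487 without both arrays of animals B, C and A. None was higher at an unadjusted p under 0.05 (against 4.81% of all probe sets), and 1 was lower (12.5% of the 8, against 7.58%). The highest values belonged to the small subunit Uqcr11 (0.39, SE 0.24), the Rieske iron-sulfur protein Uqcrfs1 (0.365, SE 0.20) and the core protein Uqcrc1 (0.36, SE 0.27). Uqcrfs1 had signals of 13.18, 13.11, 12.78 and 13.26 in the scrmb muscles and of 13.10, 13.82, 13.36 and 13.51 in the MYTHO muscles. Its groups overlapped, with the MYTHO leg of animal A below its own scrmb leg.

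Uqcrb, a small subunit that lies near the ubiquinone site, went the other way from the rest of complex III. Its log2 signals were 19.51, 19.49, 19.61 and 19.39 in the scrmb muscles and 18.95, 19.25, 18.92 and 19.24 in the MYTHO muscles. All MYTHO arrays were below all scrmb arrays, a pattern no more frequent among the 52 genes than among all probe sets. The log2 fold change was -0.41 (SE 0.17), equal to a 1.33-fold lower signal, and its limma adjusted p was 0.354. In the fit blocked on animal its unadjusted limma p was 0.0572. At the low end stood next the small subunit Uqcrq, with a log2 fold change of 0.185 (SE 0.19).

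Complex IV had 16 of its 18 structural genes above 0 and a median log2 fold change of 0.33. Of the 16, Cox7c was below 0 under quantile normalization. Cox7a2l, also named after its values were seen, turned to -0.163 without the scrmb array of animal C. Cox6a2, the muscle isoform of subunit VIa, had the largest log2 fold change of the 52 genes. It was measured at 17.57, 17.08, 16.56 and 17.57 in the scrmb muscles and at 18.22, 18.63, 18.45 and 17.87 in the MYTHO muscles. Every MYTHO array was above every scrmb array, although the margin between the lowest MYTHO array, of animal D, and the highest scrmb arrays was small. The scrmb mean was 17.20 ± 0.48 (SD, n = 4) and the MYTHO mean 18.29 ± 0.33 (SD, n = 4). This was a log2 fold change of 1.10 (SE 0.26), or 2.14-fold, with a limma adjusted p of 0.13.

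Cox8a, the ubiquitous isoform of subunit VIII, had signals of 11.29, 10.94, 10.91 and 11.63 in the scrmb muscles and of 12.17, 12.28, 12.12 and 11.70 in the MYTHO muscles. Its groups did not overlap either, but both legs of animal D lay close together. The log2 fold change was 0.875 (SE 0.21), or 1.83-fold, with a limma adjusted p of 0.143. Cox6a1, the ubiquitous isoform of subunit VIa, was measured at 9.02, 8.84, 8.59 and 8.56 in the scrmb muscles and at 9.75, 9.82, 9.35 and 8.99 in the MYTHO muscles. The MYTHO leg was higher in every animal, while the MYTHO array of animal D was below the scrmb array of animal A. Its log2 fold change was 0.725 (SE 0.22) with a limma adjusted p of 0.213.

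Cox7a1, the muscle isoform of subunit VIIa, had signals of 13.84, 13.52, 13.25 and 13.94 in the scrmb muscles and of 13.86, 14.59, 14.30 and 14.44 in the MYTHO muscles. Animals B, C and D were higher in the MYTHO leg and the legs of animal A were nearly equal. The log2 fold change was 0.66 (SE 0.22) with a limma adjusted p of 0.257. Its ubiquitous counterpart Cox7a2 was measured at 11.42, 11.36, 11.03 and 11.80 in the scrmb muscles and at 11.37, 11.74, 11.82 and 11.63 in the MYTHO muscles. Only animals B and C were higher in the MYTHO leg, and the log2 fold change was 0.24 (SE 0.20). Cox8b, the muscle isoform of subunit VIII, had signals of 14.59, 14.35, 13.91 and 14.72 in the scrmb muscles and of 14.59, 14.74, 14.52 and 14.76 in the MYTHO muscles. The legs of animals A and D were within 0.04 of each other, and the log2 fold change was 0.26 (SE 0.20), or 0.099 without the scrmb array of animal C.

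**Figure D2:**
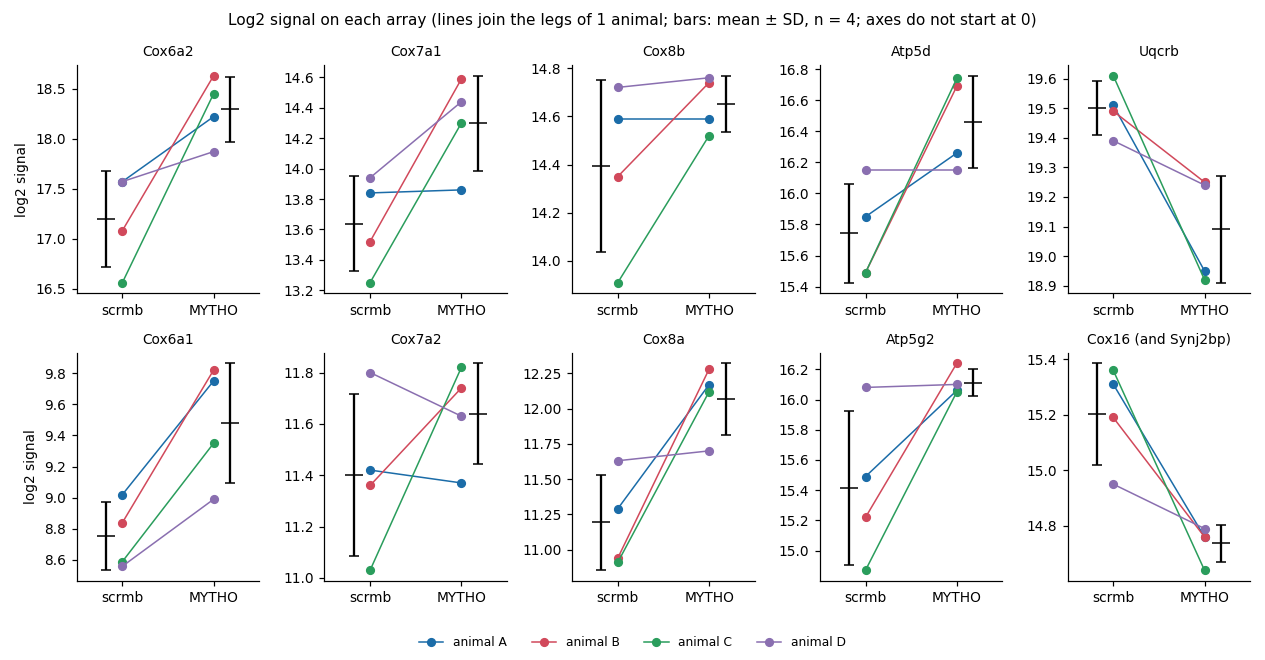
Log2 signal (vertical axes, not starting at 0) of 10 genes on each array, with a line between both legs of an animal and bars for mean ± SD of 4 arrays per group. The upper row starts with the muscle isoforms Cox6a2, Cox7a1 and Cox8b and the lower row with the ubiquitous isoforms Cox6a1, Cox7a2 and Cox8a, and the lines of Uqcrb and Cox16 fall in all 4 animals.

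The other structural genes of complex IV had log2 fold changes from -0.44 (Cox7b2) to 0.54 (Cox4i1). Cox4i1, the ubiquitous isoform of the largest nuclear subunit, had an SE of 0.23, with a MYTHO leg below the scrmb leg in animal D. Cox6b1 had 0.39 (SE 0.19) and was higher in 4 of 4 animals, and Cox7b had 0.225 (SE 0.19). The remaining tissue isoforms Cox4i2, Cox6b2, Cox7b2 and Cox8c are known from lung, testis and other organs. The mean of Cox4i2 was 5.57 ± 0.22 (SD, n = 4) in control muscle and 5.94 ± 0.34 with MYTHO-KD, and that of the testis isoform Cox6b2 was 3.83 ± 0.50 and 4.21 ± 0.79. The testis isoforms Cox7b2 (log2 fold change -0.44, SE 0.38) and Cox8c (-0.095, SE 0.20) were the 2 structural genes below 0, and the groups overlapped for all 4 of these isoforms. With 1 array left out, Cox7b2 ran from -0.82 to -0.19, and Cox8c turned to 0.034 without the MYTHO array of animal A. The means of Cox4i2, Cox6b2 and Cox7b2 lay below the array medians, and whether these signals exceed background was not tested.

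The change of a muscle isoform relative to its ubiquitous counterpart was not of one direction. Values are again in the order of animals A to D. The value tested was the difference between both log2 signals within an array, with an exact two-sided permutation test over 70 relabellings of the arrays and adjustment over 3 pairs. A difference between probe sets is no ratio of transcript levels, so only its change between groups can be read.

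For Cox7a1 minus Cox7a2, the differences were 2.42, 2.16, 2.22 and 2.14 in the scrmb muscles and 2.49, 2.85, 2.48 and 2.81 in the MYTHO muscles. All MYTHO arrays were above all scrmb arrays. The muscle isoform gained 0.42 (SE 0.12) on the ubiquitous isoform (exact permutation p = 0.0286, the smallest this design allows, adjusted p = 0.0857). For Cox8b minus Cox8a, the differences were 3.30, 3.41, 3.00 and 3.09 in the scrmb muscles and 2.42, 2.46, 2.40 and 3.06 in the MYTHO muscles. The MYTHO leg was lower in 4 of 4 animals, although by only 0.03 in animal D, whose MYTHO array overlapped the scrmb group. The muscle isoform lost 0.615 (SE 0.18) on the ubiquitous one, given as a change of -0.615 (exact permutation p = 0.0571, adjusted p = 0.0857).

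For Cox6a2 minus Cox6a1, the differences were 8.55, 8.24, 7.97 and 9.01 in the scrmb muscles and 8.47, 8.81, 9.10 and 8.88 in the MYTHO muscles. The groups overlapped, and the MYTHO leg was higher in animals B and C and lower in animals A and D. The change was 0.37 (SE 0.26, exact permutation p = 0.2, adjusted p = 0.2), and it was 0.215 without the scrmb array of animal C, 0.56 without that of animal D and 0.12 without both arrays of animal C. A p above the threshold does not show that both isoforms changed alike. With the legs paired, the exact sign-flip p over 4 animals was 0.125, 0.125 and 0.5 in the order given, and 0.125 is the smallest that 4 animals allow.

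**Figure D3:**
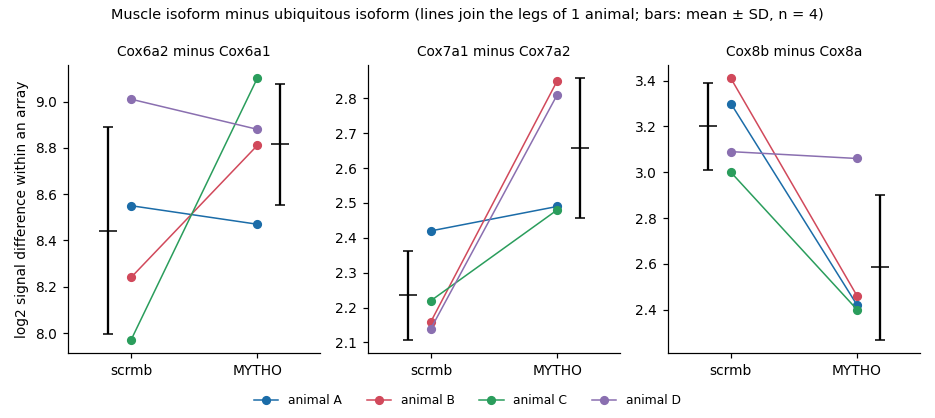
Within-array difference in log2 signal between the muscle and the ubiquitous isoform (vertical axes) for 3 subunits of complex IV, with a line between both legs of an animal and bars for mean ± SD of 4 arrays per group. The line of Cox7a1 minus Cox7a2 rises in every animal, that of Cox8b minus Cox8a falls in every animal, and Cox6a2 minus Cox6a1 goes both ways.

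The assembly factors of complex IV stayed nearest to 0, with 6 of 9 genes above 0 (Cox14 also under median centring) and a median log2 fold change of 0.05. With arrays left out, Cox10, Cox11 and Cox15 fell to -0.107, -0.0025 and -0.19 at the lowest, and Cox14 reached 0.076 at the highest. These 4 genes are named here after their values were seen. Cox17, which carries copper to the enzyme, was measured at 12.95, 12.77, 12.60 and 13.26 in the scrmb muscles and at 13.29, 13.35, 13.40 and 13.35 in the MYTHO muscles. Its MYTHO arrays were close together and all above the scrmb arrays, the nearest of which was that of animal D. The log2 fold change was 0.45 (SE 0.18, limma adjusted p = 0.346). Cox19, another factor of copper delivery, had 0.28 (SE 0.23), and Cox18, needed to insert a mitochondrially encoded subunit into the membrane, had 0.20 (SE 0.19).

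The row of Cox16 and Synj2bp had signals of 15.31, 15.19, 15.36 and 14.95 in the scrmb muscles and of 14.76, 14.76, 14.64 and 14.79 in the MYTHO muscles. No MYTHO array reached the lowest scrmb array. The log2 fold change was -0.465 (SE 0.17), or 1.38-fold lower, with a limma adjusted p of 0.291. Cox16 is a factor of copper site assembly in complex IV, whereas Synj2bp is an outer membrane protein of mitochondria. Cox20, a chaperone of a mitochondrially encoded subunit, had a log2 fold change of -0.16 (SE 0.18) and overlapping groups.

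All 17 genes with the prefix of complex V had a log2 fold change above 0, from 0.11 (Atp5b, which was below 0 under quantile normalization) to 0.715 (Atp5d), with a median of 0.30. Atp5sl, named here after its values were seen, turned to -0.117 without both arrays of animal B. Among the subunits of the catalytic F1 part, Atp5d had 0.715 (SE 0.22) and Atp5e 0.68 (SE 0.24), both of the central stalk. The gamma subunit Atp5c1 of the same stalk, named here after its values were seen, had 0.17 (SE 0.17). Atp5a1, named here after its values were seen, had 0.425 (SE 0.19), while Atp5b, the catalytic beta subunit, had 0.11 (SE 0.18) and turned to -0.058 under quantile normalization. Atp5d was measured at 15.85, 15.49, 15.49 and 16.15 in the scrmb muscles and at 16.26, 16.69, 16.74 and 16.15 in the MYTHO muscles. Both legs of animal D were equal, so the groups met at that value, and the limma adjusted p was 0.217. The other row of Atp5d, at a mean signal of 6.38 in scrmb and 6.05 in MYTHO muscles, had a log2 fold change of -0.33 (SE 0.22), so that both rows disagreed in direction, and the mean of both rows gave 0.19, no longer with an unadjusted limma p under 0.05.

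Atp5e had signals of 9.43, 9.35, 9.45 and 10.23 in the scrmb muscles and of 10.11, 10.74, 10.05 and 10.29 in the MYTHO muscles. The scrmb array of animal D lay among the MYTHO arrays, and every MYTHO leg was above its own scrmb leg. The c ring, which turns in the membrane as protons pass, is encoded by 3 genes for one mature protein. Atp5g2 was measured at 15.49, 15.22, 14.87 and 16.08 in the scrmb muscles and at 16.06, 16.24, 16.05 and 16.10 in the MYTHO muscles. Its MYTHO arrays were close together and the scrmb array of animal D stood among them. The log2 fold changes were 0.70 (SE 0.24) for Atp5g2, 0.42 (SE 0.20) for Atp5g1 and 0.21 (SE 0.23) for Atp5g3, and the differences between these genes were not tested. Atp5g3 ran from 0.07 without the MYTHO array of animal B to 0.37 without the scrmb array of animal A. Atp5k, a small membrane subunit named here after its values were seen, had 0.50 (SE 0.20) and was higher in 4 of 4 animals, and the peripheral stalk gene Atp5f1 had 0.115 (SE 0.17).

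Animals differed in how far their legs differed. In animals B and C, 46 of the 52 genes were higher in the MYTHO leg, with a median difference of 0.625 in animal B and 0.54 in animal C. In animal D 33 genes were higher, 15 lower and 4 equal (median difference 0.09), and in animal A 16 were higher, 35 lower and 1 equal (median difference -0.11). Over all probe sets, the median difference was between -0.03 and 0.01 in every animal. Within the scrmb group, the array of animal C was the lowest for 29 genes and that of animal D the highest for 25. Within the MYTHO group, the array of animal B was the highest for 32 genes and that of animal A the lowest for 29.

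**Figure D4:**
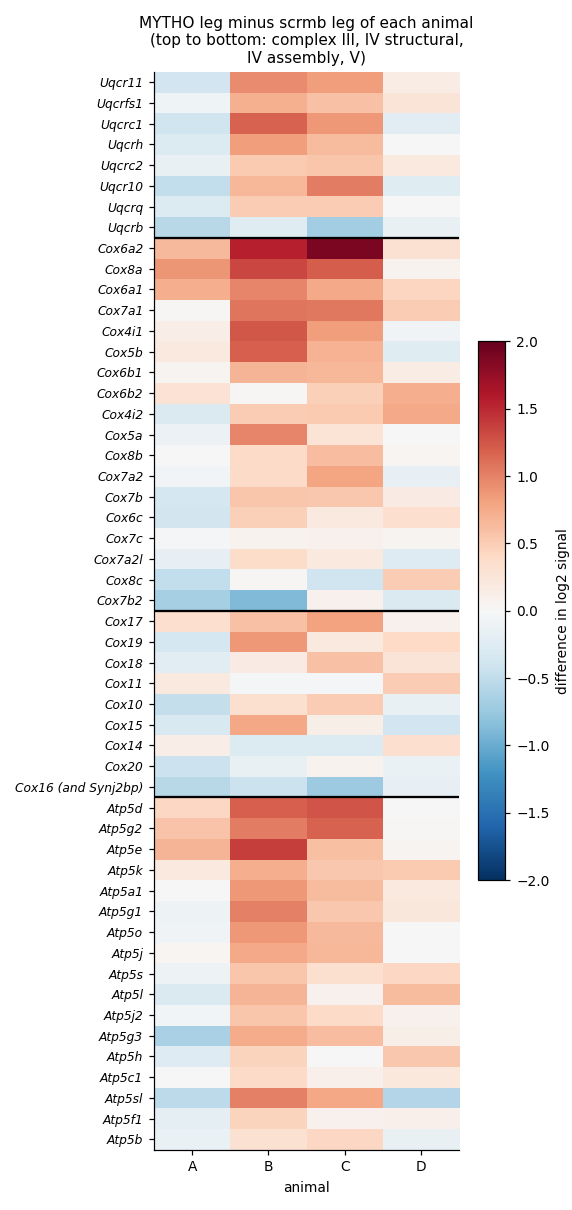
Difference in log2 signal between the MYTHO and the scrmb leg of each animal (columns) for the 52 genes (rows, grouped by complex), red where the MYTHO leg was higher and blue where it was lower. Animals B and C are red for 46 genes each, animal A is blue for 35, and Uqcrb and Cox16 are blue in all 4 columns.

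The mean over the 52 genes was 13.07, 12.75, 12.68 and 13.03 in the scrmb muscles and 12.99, 13.34, 13.16 and 13.14 in the MYTHO muscles. The groups overlapped, since the MYTHO array of animal A lay below the scrmb arrays of animals A and D. The class means differed between legs in the same order of animals. For structural genes of complex IV the MYTHO leg was higher by 0.03, 0.61, 0.58 and 0.17 in animals A to D, and for complex V the difference was -0.03, 0.76, 0.52 and 0.14. For complex III it was -0.33, 0.64, 0.54 and -0.0025.

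Markers of fiber type and of other cells were read beside these values, and no gene of these lists passed an adjusted p of 0.05. The slow fiber list (Myh7, Myl2, Myl3, Tnni1, Tnnt1, Tnnc1, Tpm3 and Atp2a2) had 8 of 8 genes above 0 (against 49.0% of all probe sets), 7 of them higher at an unadjusted p under 0.05 (87.5%, against 4.81%), and a median log2 fold change of 1.59. Its mean signal was 13.70, 11.91, 11.94 and 11.61 in the scrmb muscles and 14.88, 14.43, 14.81 and 11.68 in the MYTHO muscles, so the groups overlapped. The difference between legs was 1.18, 2.52, 2.87 and 0.08 in animals A to D, with the widest gap in animals B and C, as for the genes of complexes III to V, but it was also present in animal A, where the mean of the 52 genes was not higher. The SD of the list mean between muscles was 0.95 in scrmb and 1.52 in MYTHO muscles, beside 0.20 and 0.15 for the mean of the 52 genes, and the part of fiber type in their difference was not tested. In bulk muscle, a different share of fibers or cells and a different amount of RNA in each cannot be told apart.

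The endothelial list (Pecam1, Cdh5, Kdr and Tek) had 4 of 4 genes above 0, with a mean signal from 10.27 to 10.86 in scrmb and from 11.04 to 11.28 in MYTHO muscles, and leg differences of 0.22, 0.43, 0.87 and 0.49. The macrophage list, 5 of 5 genes above 0, ran from 7.04 to 7.42 and from 7.19 to 7.57, with leg differences of 0.47, 0.15, -0.022 and 0.31. The blood list, 3 of 4 genes above 0, ran from 11.70 to 13.70 and from 12.44 to 14.76, with leg differences of -1.22, 0.235, 0.74 and 1.535. The adipocyte list, 2 of 5 genes above 0, ran from 6.80 to 10.12 and from 7.26 to 11.57. Its leg differences were 2.68, -2.34, -1.05 and 0.75 in animals A to D, the reverse of the order of the mean of the 52 genes, for which they were -0.083, 0.59, 0.48 and 0.12. Of the 5 skeletal muscle markers 1 was above 0, 3 were below 0 and Acta1 was equal, with a median of -0.02. Acta1 was at the ceiling of 19.93 on all arrays, so its equal values are bounds. Tnnt3, which gave the median, lay at 19.79 to 19.87 and Actn3 at 19.38 to 19.93, so changes of these markers cannot be read well. The one above 0 was myoglobin (Mb), the oxygen store of oxidative fibers, with a log2 fold change of 0.55 (SE 0.21). The part of these cells in the differences was not tested.

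**Figure D5:**
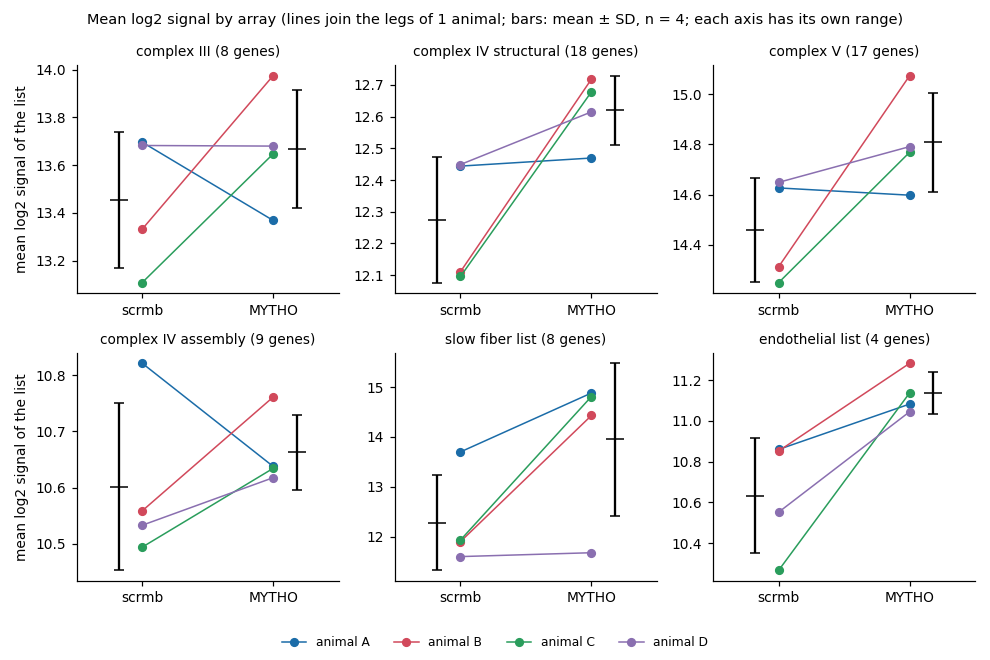
Mean log2 signal of each class of genes and of the slow fiber and endothelial lists on each array (vertical axes, each with its own range), with a line between both legs of an animal and bars for mean ± SD of 4 arrays per group. The slow fiber lines are steepest in animals B and C, with 2.52 and 2.87, and nearly flat in animal D, with 0.08.

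Other genes of the same pathway were read in the same fit. Of 30 nuclear assembly factors and partners of complexes III to V, 21 had a log2 fold change above 0, with a median of 0.095. At an unadjusted p under 0.05, 3 were higher (10.0%, against 4.81% of all probe sets) and none lower (against 7.58%). The groups did not overlap for 3 of the 30, all higher (background 2.59%). These were Cyc1, Higd2a and Smim20, the last named here after its values were seen. Cyc1, the cytochrome c1 subunit of complex III whose symbol lies outside the Uqcr family, was measured at 10.45, 9.83, 9.12 and 10.07 in the scrmb muscles and at 10.48, 11.34, 10.88 and 10.65 in the MYTHO muscles. All MYTHO arrays were above all scrmb arrays, if only just in animal A. Its log2 fold change was 0.97 (SE 0.28) with a limma adjusted p of 0.208. Higd2a, a factor of supercomplex formation, had 0.52 (SE 0.17, limma adjusted p = 0.25) and no overlap between groups, and Uqcc2, an assembly factor of complex III, had 0.50 (SE 0.20, limma adjusted p = 0.343).

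The mitochondrially encoded subunits CYTB, COX1, COX2, COX3, ATP6 and ATP8 were held in 4 rows that were at the ceiling of 19.93 on all arrays, so their signals are bounds and no comparison could be made. Complexes I and II, which feed electrons into complex III, had positive medians too. Of 37 genes with the symbols of complex I, 32 were above 0 and 8 were higher (21.6%, against 4.81% of all probe sets) and none lower (against 7.58%) at an unadjusted p under 0.05, with a median of 0.19. The symbols took in Ndufa4, a subunit of complex IV that is also counted among the partners above, and its paralog Ndufa4l2. The complex I count was 3, 1, 2, 4 and 5 without the scrmb arrays of animals B and C and the MYTHO arrays of animals B, A and D, each left out alone, and 1 and 2 without both arrays of animals B and C. Of 4 complex II subunits, 3 were above 0, with a median of 0.33. The membrane anchor Sdhc had a log2 fold change of 0.995 (SE 0.30, limma adjusted p = 0.213), the iron-sulfur subunit Sdhb 0.47 (SE 0.22), the other anchor Sdhd 0.18 (SE 0.19) and the flavoprotein Sdha -0.275 (SE 0.28). No test of complexes III to V against these groups was made.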

How the data were processed

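Gene expression was measured on Clariom S Mouse arrays hybridised with RNA of 8 GAS muscle pieces, 4 per group. The authors deposited log2 signals from the Transcriptome Analysis Console version 4.0.1 with default settings (SST-RMA at gene level, annotation release 36, build mm10, rounded to 2 decimals), and the submitters' processing notes also name the Affymetrix Expression Console and RMA. That procedure adjusts the arrays to each other, so only changes relative to the other genes can be read. Their group averages, fold changes, p-values and false discovery rates were not used.

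The 8 signal columns were fitted by limma (version 3.58.1, R version 4.3.3, lmFit and eBayes, MYTHO minus scrmb, two-sided, no block, as the array methods of the study name an ANOVA with no pairing term, although its general statistics use paired tests for related groups), with Benjamini-Hochberg adjustment over 22206 probe sets and a threshold of 0.05. The code of the fit was tried on simulated arrays with planted changes, which checks the code and not the results given here. Error bars and SE are those of this fit, and the precision is limited by 4 arrays per group. Isoform differences were tested by exact permutation over 70 relabellings. All 52 genes were matched to RefSeq, and Coa1 of the assembly list had no row in the table.

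Same-numbered columns come from the legs of 1 animal. Their deviations from the group means correlated at 0.0027, -0.0014, 0.135 and 0.087 in animals A to D over all probe sets, and at 0.092, 0.250, 0.340 and 0.122 over the 52 genes. The labels' own replicate numbers match no column name, and the animal number served as the block.

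The members, the lists and the tests were chosen with earlier results of these data known. Named were the isoforms of complex IV and their counterparts, the genes of the c ring, the 3 highest and 2 lowest genes of each class, genes past a threshold, and genes of the other lists with an unadjusted p under 0.05. Other genes are named as such. Alternatives were quantile normalization, median centring, the upper 75% of probe sets by signal, animal as a fixed or random block, eBayes with trend and robust, array weights, no saturated probe sets, the mean over rows, rows naming 1 gene, leaving out each array and, chosen after seeing the data, leaving out both arrays of each animal.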

Additional observations from a re-analysis of the deposited data

Results flagged for a closer look

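In each group of 4 arrays, an array was singled out if its gap to the nearest other array was a larger share of the range of the group than the critical value of Dixon's test. Of 76 groups examined (30 genes, 5 class means and 3 isoform differences, each in both groups), 5 had such an array, and chance alone singles out about 1 group in 20. The scrmb array of animal D was apart for Atp5e, at 10.23 against 9.35 to 9.45 on the other scrmb arrays (gap share 0.886). The scrmb array of animal A was apart for Cox20, at 13.36 against 12.86 to 12.93 (0.86). The MYTHO array of animal A was apart for Uqcrq, at 12.92 against 13.22 to 13.24 (0.938). For the mean of the complex IV assembly factors the MYTHO array of animal B was apart, at 10.76 against 10.62 to 10.64 (0.86), and for Cox8b minus Cox8a the MYTHO array of animal D was apart, at 3.06 against 2.40 to 2.46 (0.909).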

How the results depend on the processing

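With 4 arrays per group, the adjusted p of no gene passed 0.05 except with eBayes trend and robust, where 2 genes did, Cox6a2 (adjusted p = 0.0333) and Cox8a (adjusted p = 0.0475), beside 30 higher and 130 lower probe sets of 22206 in place of 2 and 4. The unadjusted count of lower genes was 1 under median centring, with the replicate block by animal and among rows naming 1 gene. Median centring gave 5 assembly factors and partners in place of 3. Leaving out arrays gave 3 to 16 higher and 0 to 2 lower genes at an unadjusted p, 0 to 2 genes past the threshold of the study, and 1 to 10 genes of the complex I list. Cox7a1 minus Cox7a2 changed by 0.38 under quantile normalization (exact permutation p = 0.0571) and by 0.33 to 0.54 with arrays left out, Cox6a2 minus Cox6a1 by 0.12 to 0.56, and Cox8b minus Cox8a by -0.81 (without both arrays of animal D) to -0.50. Of 658 values of 30 named genes under the alternatives, 652 kept their direction and side of an adjusted p of 0.05, 2 passed it (those above) and 4 reversed. No named gene passed it in the main fit, so none could lose it, and settings that keep the fold change cannot reverse it. This count therefore says little about how steady the sizes were. Atp5d, for example, fell from 0.715 to 0.19 with the mean over rows and was counted as kept. The reversals were Atp5b at -0.058 under quantile normalization and Cox8c in 3 fits with arrays left out. Cox8c was 0.034 without the MYTHO array of animal A, 0.04 without both arrays of animal A and 0.0067 without both arrays of animal C. It ranged from -0.29 to 0.04 over the fits with arrays left out. Leaving out 1 array moved the log2 fold change by over 1.5 times for 16 of the 19 named genes with an unadjusted p above 0.05 and for none of the 11 under it. The causes were not tested.

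With the replicate block by animal, 9 genes were higher and 1 lower at an unadjusted p, and none passed an adjusted p of 0.05. The paired sign-flip p of Cox7a1 minus Cox7a2 was 0.125, the smallest that 4 animals allow. The median log2 fold change of the 52 genes stayed between 0.165 and 0.428 under all alternatives. With arrays left out, the median ran from 0.105 to 0.487 for complex III, from 0.215 (without both arrays of animal B) to 0.43 for structural genes of complex IV, from 0.0025 (without the scrmb array of animal C) to 0.167 (without both arrays of animal A) for assembly factors, and from 0.197 to 0.47 (without both arrays of animals B and A) for complex V. The rows of mitochondrially encoded subunits, all at the ceiling of 19.93, gave no comparison under any setting.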

Other observations

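The genes of the complex I list with an unadjusted limma p under 0.05 were all higher after MYTHO-KD. The log2 fold changes were 0.90 (SE 0.28) for Ndufv3 and 0.81 (SE 0.30) for Ndufa4l2, 0.69 (SE 0.31) for Ndufb10, 0.65 (SE 0.24) for Ndufa3 and 0.64 (SE 0.29) for Ndufs7. Ndufa2 had 0.51 (SE 0.20), Ndufa13 0.41 (SE 0.17) and Ndufa1 0.40 (SE 0.17). The groups did not overlap for Ndufv3, Ndufa2, Ndufa13 and Ndufa1, 4 of the 37 genes (2.59% of all probe sets). The lowest adjusted p of the complex I list was 0.222 in limma. Ndufa4l2, which the symbol rule placed on this list, is known as a hypoxia-induced paralog of Ndufa4 and not as a core subunit.

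In the slow fiber list, the troponin gene Tnni1 had the highest log2 fold change, at 2.44 (SE 0.86), followed by Tnnc1 at 1.88 (SE 0.69) and the slow myosin gene Myh7 at 1.82 (SE 0.71), with a lowest adjusted p of 0.28 in limma. The endothelial receptor gene Tek had 0.86 (SE 0.26) and Pecam1 0.45 (SE 0.19). Only these 2 of the 4 endothelial genes were higher at an unadjusted limma p under 0.05 (against 4.81% of all probe sets). The groups did not overlap for Tek, Pecam1 and Cdh5 at 0.22 (SE 0.16), all higher. These were 3 of the 4 genes of that list (against 2.59% of all probe sets).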
